A study of Mus musculus with 21 samples.

Results

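The Gli2 locus was taken here as the Gli2 gene body and the 100 kb on either side of it, on chromosome 1 of the mouse genome. Its members are the open-chromatin summits that fell in this window among the 100000 strongest summits of each of 21 libraries, with the 10000 strongest as an upper tier. Merged across libraries into non-overlapping regions of 500 bp, called sites, they numbered 521 of 270959 regions in all. The sites were built from 3346 of the 2100000 summits kept. Of the 210000 summits in the upper tier, 409 lay in the window. The members were chosen by measured values, namely the rank of each summit's score in its list together with its position, so counts and ranks at single sites are given as a description, without a test.

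Accessible chromatin had been profiled with Omni-ATAC, in which a transposase cuts open DNA, along the course of mouse medulloblastoma and in a medulloblastoma cell line. The 9 primary libraries came from mouse cerebella, those of the first 2 groups carrying Atoh1-EGFP, with 3 libraries each of granule neuron progenitors (GNP, postnatal day 7, sample titles prefixed Ptch1), hyperplasia (postnatal day 28) and tumor. The other 12 came from the line VDR, with 3 libraries each untreated, treated with a control siRNA (siNC), with an siRNA against Nfia (siNfia) or with one against Nfib (siNfib). The labels call the reagent an siRNA but the deposited lists are named with the prefix sh, so which was used is uncertain, and siRNA is written below as in the labels. Genotypes, the age of the tumor-bearing mice, the origin of the line and whether replicates were separate animals or cultures are not given in the sources used here, so a p-value may reflect technical spread alone. GNP and hyperplasia cells went over a percoll gradient and tumors were digested with trypsin and DNase, and the labels leave unclear whether the EGFP sort that is then described applied to all 3 or to tumors alone. Isolation and stage cannot be told apart. All 9 granule progenitor markers checked, among them Atoh1, Barhl1 and Zic1, had occupied regions in every library.

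Gli2 is a zinc-finger transcription factor and the main transcriptional activator downstream of Sonic hedgehog. When ligand relieves the receptor Ptch1's block of Smoothened (Smo), Gli2 escapes processing and Sufu restraint and switches on target genes such as Gli1 and Ptch1 itself. In the cerebellum this pathway drives division of granule neuron progenitors, and its unchecked activity gives rise to one class of medulloblastoma.

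Gli2 (gene ID 14633) spans chr1:118834061-119054405 on mm10, 220.3 kb on the minus strand. Its nearest protein-coding genes lie 148.9 kb beyond its 3′ end (Tfcp2l1) and 361.1 kb upstream (Inhbb). Inside the body lie the long non-coding gene Gm51642 and the microRNA gene Mir6346, and a further long non-coding gene, Gm41934, lies in the upstream flank. Positions below are given in kb from the RefSeq start site at position 119053619, counted into the gene toward its 3′ end, and values beyond the body are named as flanks. The body held 288 sites, the upstream flank 118 and the downstream flank 115. Whether a site in the body is exonic or intronic was not analysed here.

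The start site itself was open in every library, and its promoter sequence is shown because it carries one of the most constant summits of the locus. All 21 libraries had a kept summit inside the RefSeq promoter window chr1:119053570-119053869 (GRCm38.p6, minus strand, 250 bases before and 50 after the start). The strongest summit of each library fell between 50 and 93 bases before the start, with a median of 64. In the sequence, written 5′ to 3′ on the gene's strand, the capitals mark the 44 bases that span those 21 summits.
Gli2 promoter: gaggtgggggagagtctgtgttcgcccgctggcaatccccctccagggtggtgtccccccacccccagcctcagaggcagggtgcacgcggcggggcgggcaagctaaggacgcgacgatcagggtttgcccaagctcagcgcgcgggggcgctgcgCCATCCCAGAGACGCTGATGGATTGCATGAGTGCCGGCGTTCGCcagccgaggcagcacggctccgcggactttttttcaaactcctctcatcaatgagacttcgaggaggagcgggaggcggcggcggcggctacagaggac

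The promoter is GC-rich, at 67.3% against a median of 52.7% over 32851 RefSeq promoters of the same length. It held 28 CpG dinucleotides against a median of 7, and 85.8% of promoters held fewer. On either strand it held no exact match to the GLI motif GACCACCCA, which 0.253% of promoters contain. There was also no exact match to the full palindromic motif of the NFI factors (0.0365% of promoters) or to its repeated core TTGGC, which lies within the full motif (46.7%). The E-box CAGCTG (16.3%) and the AP-1 motif TGACTCA (5.2%) had no match either. These letters are not in this window, and nothing follows from that about the factors.

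The promoter site (chr1:119053421-119053920) was far stronger in rank in the untreated line than in primary cells. Rank 1 is the strongest summit of a library's list. The site ranked 4812, 4965 and 4102 in GNP, 4465, 5199 and 5862 in hyperplasia and 10198, 2860 and 5418 in tumor. In untreated VDR it ranked 116, 101 and 111. Among siRNA-treated cells the ranks were 976, 1111 and 828 for siNC, 652, 2127 and 565 for siNfia and 541, 1151 and 1753 for siNfib. The 3 primary groups overlapped one another, every siRNA library was stronger in rank than every primary library, and untreated VDR was stronger than all of them. List lengths and score ranges differed between libraries, so a rank says how a site stood within its own list and not how much DNA was cut.

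The locus as a whole held a similar number of sites in GNP, hyperplasia and tumor, more in the siRNA-treated line, and several times more in the untreated line. Among the 100000 strongest, 61, 65 and 65 summits lay in the window in GNP, 56, 49 and 69 in hyperplasia and 69, 56 and 61 in tumor. The untreated line had 587, 672 and 558. The siRNA-treated cells had 108, 121 and 97 (siNC), 116, 128 and 112 (siNfia) and 100, 102 and 94 (siNfib). The primary groups overlapped, and every siRNA library lay above every primary library and below every untreated VDR library.

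Counted as regions assigned to Gli2, which is the measure tested across genes, the group means were 43.0 ± 1.73 (SD, n = 3) in GNP, 38.3 ± 4.51 in hyperplasia and 42.7 ± 3.51 in tumor. They were 353 ± 31.2 in untreated VDR, 65.0 ± 7.81 for siNC, 68.7 ± 8.62 for siNfia and 60.7 ± 3.21 for siNfib. The density within the body, in regions per 10 kb, ran from 1.3 in hyperplasia, 1.42 in tumor and 1.48 in GNP to 2.24 with siNfib, 2.41 with siNC, 2.54 with siNfia and 9.74 in untreated VDR. Within the body hyperplasia (27 to 31 regions) lay below GNP (32 to 34) without overlap, and tumor (28 to 35) overlapped both. The siRNA groups overlapped one another, and the steps between the 3 kinds of sample did not overlap.

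**Figure D1:**
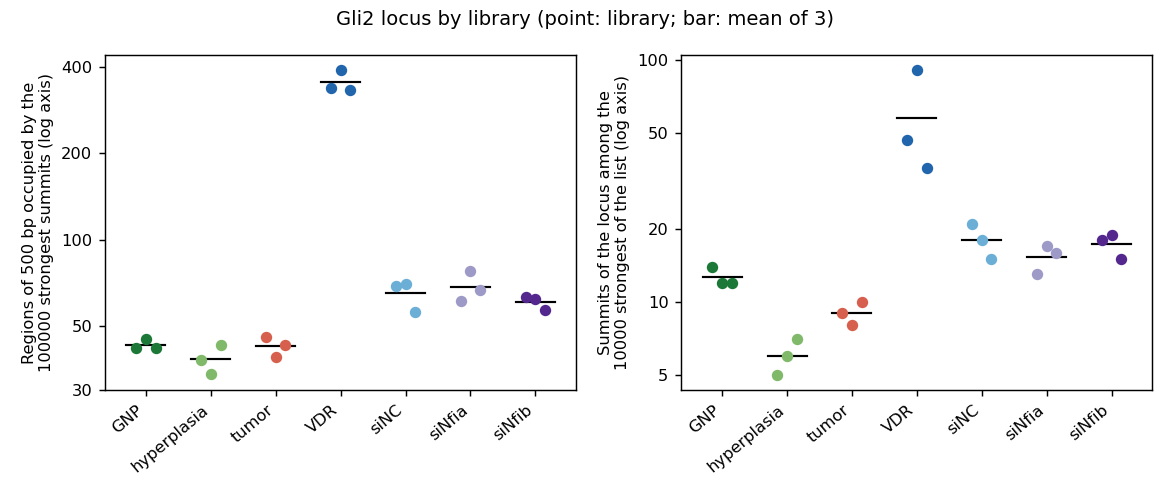
Left, regions of 500 bp assigned to Gli2 in each library, and right, summits of the locus among the 10000 strongest of the list, both on log axes, with a point per library and a bar at the mean of 3. Untreated VDR (333 to 389 regions) lies above every other library, and in the upper tier hyperplasia (5 to 7) lies below tumor (8 to 10) and GNP (12 to 14).

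Along the primary stages, the number of Gli2 regions did not pass the test in any comparison. Counts in the strongest tier did not overlap between stages, and did not pass the test there either. The difference in mean log2(regions + 1) was -0.17 for hyperplasia minus GNP (SE 0.0937, limma adjusted p = 0.295). For tumor minus hyperplasia it was 0.15 (SE 0.0937, limma adjusted p = 0.425), and for tumor minus GNP -0.01 (SE 0.0937, limma adjusted p = 1). In these comparisons 6.06%, 1.3% and 5.43% of 6832 genes tested were called higher and 4.65%, 1.2% and 3.57% lower. Set against the mean of the 5 nearest genes on each side, the differences were -0.13, 0.26 and 0.14 (limma adjusted p = 0.524, 0.254 and 0.503), and 6.29%, 0.746% and 6.05% of genes were called higher and 5.09%, 0.6% and 3.5% lower. Gli2 was picked with these results in view, so its place among the genes not called is no independent finding.

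Among the 10000 strongest summits, the window held 14, 12 and 12 in GNP, 5, 6 and 7 in hyperplasia and 9, 8 and 10 in tumor. The 3 groups did not overlap: hyperplasia was lowest, tumor lay between, and GNP was highest. The mean score at rank 10000 had the same order, at 112 in hyperplasia (97.3 to 135), 160 in tumor (103 to 233) and 286 in GNP (218 to 419). The part of this list difference in the counts was not tested. Regions assigned to Gli2 in this tier numbered 10 to 12 in GNP, 4 to 7 in hyperplasia and 8 to 9 in tumor, again without overlap. Of 4427 genes with a mean of at least 1 such region, 5.06% lay lower in hyperplasia than in GNP without overlap, 3.75% higher in tumor than in hyperplasia and 3.41% lower in tumor than in GNP. In limma on this tier the hyperplasia minus GNP difference was -0.87 (SE 0.178, adjusted p = 0.0825). Tumor minus hyperplasia was 0.51 (limma adjusted p = 0.516) and tumor minus GNP -0.36 (limma adjusted p = 0.179), so none of them passed. On the 50000 strongest, hyperplasia minus GNP was -0.37 and passed (SE 0.0665, limma adjusted p = 0.0173), against a range of adjusted p from 0.0173 to 0.596 over all alternatives. An exact permutation test of 3 libraries against 3 cannot give a two-sided p below 0.1. Counts over cell type markers differed between hyperplasia and GNP as well. The 5 microglia and immune markers summed to 17 to 20 regions in hyperplasia, against 10 to 12 in GNP and 11 to 14 in tumor, with Ptprc (0.78) and Irf8 (0.79) called higher than in GNP and Csf1r at 0 in all 3 groups. The 9 granule progenitor markers summed to 116 to 129 in hyperplasia, 135 to 144 in GNP and 123 to 130 in tumor, with Neurod1 called lower than in GNP (-0.54). The part of these values in the result was not tested.

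Of the sites among the 10000 strongest in all 3 GNP libraries, 4 were in that tier in no hyperplasia library, at 189.4, 148.4, 137.0 and 30.8 kb. Of 23 Gli2 sites occupied in all 6 libraries of GNP and hyperplasia, 8 had a weaker rank in every hyperplasia library than in every GNP library, which is 34.8% of them. Over all regions 17.7% did so, and 2 of 17 sites of the neighbouring genes. In the other direction 1 of the 23 was stronger in every hyperplasia library, against 17.2% of all regions.

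Several sites deep in the gene ranked weaker in hyperplasia than in GNP. The site 189.4 kb into the gene (chr1:118863921-118864420) ranked 1737, 1400 and 1539 in GNP and 10399, 10960 and 15246 in hyperplasia. In tumor it ranked 8979, 14537 and 8008, so that hyperplasia and tumor overlapped and both lay weaker than GNP. Its neighbour at 188.7 kb (chr1:118864668-118865167) ranked 2053 to 2244 in GNP, 6354 to 7295 in hyperplasia and 3983 to 9245 in tumor, and so stayed among the 10000 strongest in all 9 libraries. The same order held at 148.4 kb (chr1:118904929-118905428), with 5874 to 7070 in GNP, 27970 to 34954 in hyperplasia and 24574 to 54142 in tumor. At 137.0 kb (chr1:118916399-118916898) the ranks were 4999 to 7797 in GNP, 12628 to 16266 in hyperplasia and 14299 to 17520 in tumor. All 4 sites were thus weaker in rank in both later stages than in GNP, with no overlap.

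At 52.1 and 30.8 kb, nearer to the promoter, hyperplasia stood apart from both other stages. This did not hold for all sites there. The site at 30.1 kb was weaker in every tumor library than in every GNP library, and was not among the 8 weaker in hyperplasia. Deep in the gene, the site at 139.9 kb was stronger in tumor than in GNP. The site at 52.1 kb (chr1:119001308-119001807) ranked 1250, 991 and 2153 in GNP, 12324, 5802 and 11083 in hyperplasia and 1753, 2702 and 1926 in tumor. GNP and tumor overlapped there, and hyperplasia was weaker than both. The site at 30.8 kb (chr1:119022523-119023022) ranked 6219, 7422 and 6102 in GNP, 33207, 18860 and 13775 in hyperplasia and 4418, 4393 and 5757 in tumor. Here tumor was stronger than GNP and hyperplasia was again weakest.

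At 1 site both later stages ranked stronger than GNP. At 19.5 kb (chr1:119033885-119034384) the ranks were 20106, 16070 and 15175 in GNP, 12933, 12509 and 7746 in hyperplasia and 3513, 6097 and 3633 in tumor. The 3 groups did not overlap, with tumor strongest. It was the 1 site of the 23 whose rank was stronger in hyperplasia than in GNP. At 98.4 kb (chr1:118954930-118955429), inside the long non-coding gene Gm51642, tumor ranked 2823 to 3927 and GNP 5002 to 9198, with hyperplasia across both at 3806 to 7835. Between tumor and GNP, 7 of 31 sites ranked stronger in tumor (22.6%, against 18.6% of all regions) and 7 weaker (22.6%, against 20.3%), shares near the background. Between tumor and hyperplasia, 4 of 24 ranked stronger in tumor (16.7%, against 14.5%) and 1 weaker (4.17%, against 13.2%).

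Sites occupied in 3 of 3 libraries of one stage and none of the other were few, and none was among the 10000 strongest of a primary library. Hyperplasia had 2 that GNP lacked of 60 tested (3.33%, against 4.72% of all regions) and lacked 4 that GNP had (6.67%, against 4.43%). The 2 gained lay at 227.8 kb, just past the 3′ end, and at 126.1 kb. The 4 lost lay at 149.0, 117.5, 113.1 and 58.5 kb. Tumor against hyperplasia gave 0 gained and 0 lost of 60, against 1.82% and 2.03% of all regions. Without hyperplasia replicate 2 or tumor replicate 2 the gained sites numbered 2, without tumor replicate 3 they numbered 1, and without tumor replicate 1 or 3 the lost ones numbered 1. Tumor against GNP gave 2 gained of 61 (3.28%, against 4.71%), at 227.8 and 1.7 kb, and 5 lost (8.2%, against 4.37%), at 149.0, 142.8, 117.5, 113.1 and 58.5 kb.

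The whole lists show how these sites stood beyond the rank limit. Of the 4 sites lost in hyperplasia, 1 was still listed in all 3 hyperplasia libraries and 3 in 1 or 2 of them. Of the 5 lost in tumor against GNP, 3 were still listed in all 3 tumor libraries and 2 in 1 or 2. The 117.5 kb site (chr1:118935898-118936397) ranked 27793, 21990 and 33521 in GNP. In hyperplasia it was listed in 1 library, at 150711, and unlisted in the other two, and in tumor it ranked 141253, 105380 and 112055. The 227.8 kb site (chr1:118825611-118826110) ranked 180198, 135233 and 211606 in GNP, 89693, 89507 and 56773 in hyperplasia and 59442, 52935 and 68290 in tumor. An unoccupied site may therefore still hold a weaker summit. For the window as a whole, the last summit inside the limit of 100000 ranked 99723 (score 9.26) and the first outside ranked 101034 (score 9.02). At the upper tier the corresponding ranks were 9979 (score 155) and 10129 (score 154).

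In the untreated line the locus was dense with summits. Gli2 had 3.02 more on the log2(regions + 1) scale than tumor (SE 0.103, limma adjusted p = 9.73e-15), with all 3 VDR libraries above all 3 tumor libraries. As Gli2 was picked with these results in view, this call and that for siNC below are no independent finding. Of 6713 genes tested, 27.3% were called higher and 32.4% lower. Of 521 sites, 361 were occupied in untreated VDR alone (69.3%, against 40.2% of all regions), and 105 were occupied in 3 of 3 untreated VDR libraries and in no other library (20.2%, against 0.377%). Against tumor, 149 of 520 sites were gained (28.7%, against 1.1% of all regions and 164 of 1061 sites of the neighbouring genes) and 0 were lost (against 8.56%). Without VDR replicate 3 the gained sites numbered 236.

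**Figure D2:**
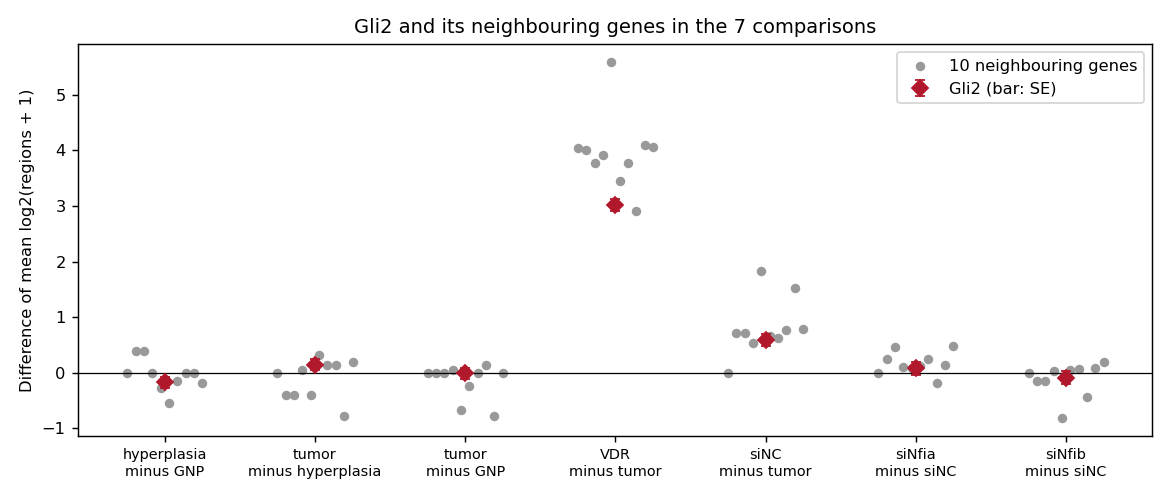
Difference of mean log2(regions + 1) in each of the 7 comparisons, for Gli2 (diamond, bar: SE) and for its 5 nearest protein-coding genes on each side (grey points). In VDR minus tumor Gli2 lies at 3.02 and 9 of the 10 neighbours lie above it.

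The neighbouring genes were denser as well. From the downstream to the upstream side these were B020011L13Rik, Tsn, Nifk, Clasp1, Tfcp2l1, Inhbb, Ralb, Tmem185b, Epb41l5 and Ptpn4. Clasp1, Tfcp2l1, Inhbb, Ralb, Epb41l5 and Ptpn4, the 6 with a mean of at least 3 regions over the 18 libraries other than untreated VDR, rose from tumor to untreated VDR. Tsn, Nifk and Tmem185b reached that mean through untreated VDR alone, so their calls are not counted. As plain differences of mean log2(regions + 1), without a test, the median over the 10 was 3.96, ranging from 2.90 for Tmem185b to 5.59 for Tfcp2l1. Measured against the mean of all 10 neighbours, Gli2 was lower in VDR than in tumor by 0.94 on the log2 scale (-0.94, SE 0.113, limma adjusted p = 1.31e-06). On that measure 11.5% of genes were called higher and 21.7% lower. The mean takes in Tsn, Nifk, Tmem185b and B020011L13Rik, the last with 0 regions outside untreated VDR. Tsn, Nifk and Tfcp2l1 had means of 1.0, 1.0 and 1.33 regions in tumor, against 42.7 for Gli2. The -0.94 thus rests in part on neighbours with few regions in tumor. By share of sites gained, Gli2 stood at 28.7% and its neighbours at 15.5%. Untreated VDR supplied most of the 520 and 1061 sites behind these shares, as tumor against GNP had 61 and 47. The shares thus mainly show how often a VDR summit recurred in all 3 VDR libraries, and say little about gain over tumor. Tfcp2l1, which encodes a transcription factor, was the neighbour that exceeded its own surroundings most, by 1.64 (SE 0.217, limma adjusted p = 5.41e-06).

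The dense stretch extended far beyond Gli2. In bins of 250 kb laid out from the start site, every untreated VDR library exceeded every primary library in 99 adjoining bins, which is 24.75 Mb (chr1:99553620-124303619), against 11.1% of all 9617 bins of the genome. This run was measured after the data had been seen. It ended 5.25 Mb upstream of Gli2 and 19.5 Mb downstream. The bin from the start site into Gli2 held 353 to 430 kept summits in untreated VDR, the highest mean of any bin of the genome, against 39 to 52 in primary and 69 to 99 in siRNA libraries. The density of the surrounding stretch moved with the Gli2 count, and its part in the result was not tested. DNA copy number was not measured here.

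The profile within the stretch was not flat. Between 1000 and 2500 kb downstream of the start, where primary libraries had no kept summit, untreated VDR had 13 to 39 a bin. The 4 bins that hold the most after that of Gli2 all lay within 1.25 Mb of the start site. The siRNA-treated line did not share the long run: every siRNA library exceeded every primary library in 3 adjoining bins, 0.75 Mb from the start site into the gene and past it (chr1:118303620-119053619), against 8.33% of all bins. In the 3 bins between 1.25 and 2 Mb upstream the siRNA libraries held 0 to 2 kept summits each. In the bin 1250 to 1500 kb upstream they held 0 to 1 kept summits, primary libraries 5 to 10 and untreated VDR 171 to 280, and in the whole lists the same bin held 0 to 11, 14 to 31 and 227 to 324. At this stretch of chromosome 1 the untreated and siRNA-treated lists, both labelled VDR, therefore stood apart. Whether the 2 kinds of library came from the same cells was not tested.

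**Figure D3:**
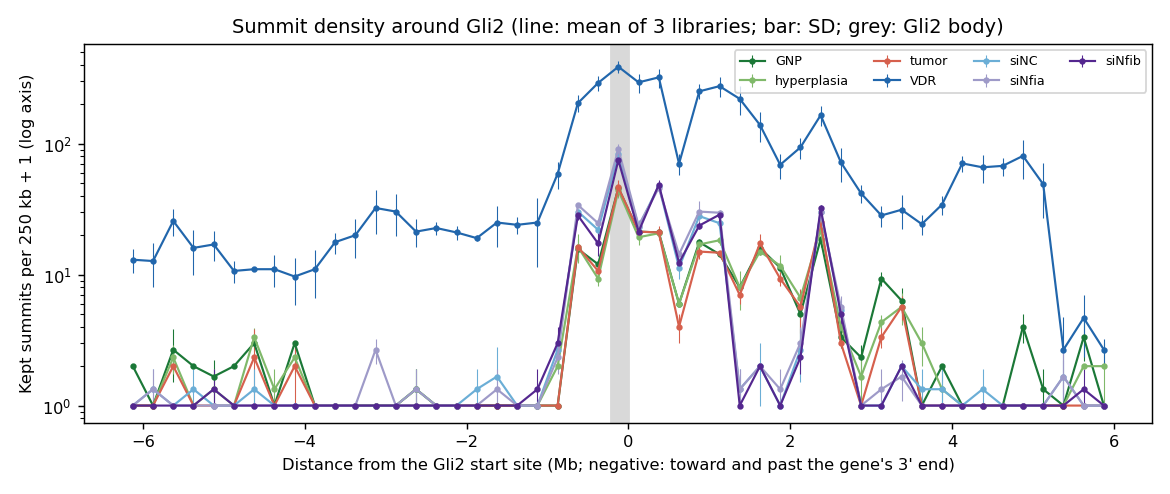
Kept summits per 250 kb plus 1, on a log axis, against distance from the Gli2 start site in Mb, with a line per group (mean of 3 libraries, bar: SD) and the Gli2 body in grey. Untreated VDR peaks over Gli2 at a mean of 386 a bin and drops beyond 5.25 Mb upstream, while the siRNA groups fall to near 0 between 1.25 and 2 Mb upstream.

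The untreated VDR lists also differed in kind. Their score at rank 100000 was 3.76 to 3.97, against 4.95 to 17.4 in siRNA and 9.26 to 28.9 in primary libraries, so that weaker summits entered the kept set. In the window they held 1.15 summits per peak, against 1.59 to 2.06 in the other groups. With a fixed score of at least 10 in place of a fixed number, the VDR minus tumor difference for Gli2 was 0.22 and did not pass (limma adjusted p = 0.39), while the median over all 5744 genes tested was -2.18. On that setting 4 genes were called higher and 5571 lower, so that 0.0717% of the called genes were higher, against 45.7% at equal list length. In the upper tier it was 2.17 (limma adjusted p = 2.85e-05), on 47, 91 and 36 summits in the window against 9, 8 and 10. The score at rank 10000 was 10.1 to 14.7 in untreated VDR and 103 to 233 in tumor. Granule progenitor markers had fewer regions there, with summed counts of 37 to 52 in untreated VDR and 123 to 130 in tumor. Microglia and immune markers summed to more, at 39 to 46 against 11 to 14, and most of this came from Irf8 (mean 32.3 against 7.33). Ptprc went the other way, at 4.0 against 4.67, and by -0.86 measured against its neighbours (limma adjusted p = 0.00668). Aif1, Cx3cr1 and Csf1r had too few regions to test. Csf1r, a receptor that marks microglia, was at 0 in every group but untreated VDR, where it had 1 to 2. The 5 oligodendrocyte markers summed to 15 to 26 in untreated VDR and 33 to 39 in tumor. Olig2 (-2.17), Olig1 (-1.21) and Mbp (-0.97) were called lower. Sox10 had 9 to 11 regions in untreated VDR and 2 to 3 in tumor. It reached the mean of 3 through untreated VDR alone, so its call is not counted. Astrocyte markers summed to 31 to 44 against 28 to 29, endothelial and mural markers to 21 to 35 against 18 to 19, Purkinje and interneuron markers to 12 to 18 against 8 to 9, and fibroblast markers to 6 to 9 against 9 to 10. The part of these values in the Gli2 result was not tested.

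Of the 521 sites, 17 were occupied in all 21 libraries (3.26%, against 5.44% of all regions), with 14 in the body, 1 upstream at 30.2 kb and 2 downstream at 276.7 and 293.9 kb. Of these, 3 were among the 10000 strongest of every library, at 188.7, 98.4 and 71.0 kb into the gene. In any library 89 sites reached that tier, and 65 of them did so in untreated VDR alone. Outside untreated VDR 24 did so, and 13 in a primary library.

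The site at 98.4 kb had the strongest median rank of these 3 in all 4 groups of the line. It ranked 38, 46 and 37 in untreated VDR, 301, 359 and 746 for siNC, 956, 416 and 902 for siNfia and 208, 192 and 490 for siNfib. All 12 line libraries were stronger in rank than all 9 primary libraries, whose range was 2823 to 9198. The site at 71.0 kb (chr1:118982418-118982917) showed the same separation, with 51 to 112 in untreated VDR, 754 to 1607 over the siRNA libraries and 1767 to 6796 over the primary ones. At 52.1 kb untreated VDR ranked 35, 52 and 34. Between untreated VDR and tumor, 26 of 32 sites occupied in all 6 libraries were stronger in every VDR library (81.2%, against 19.9% of all regions and 18 of 20 neighbouring sites), and none was weaker (against 19.2%).

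**Figure D4:**
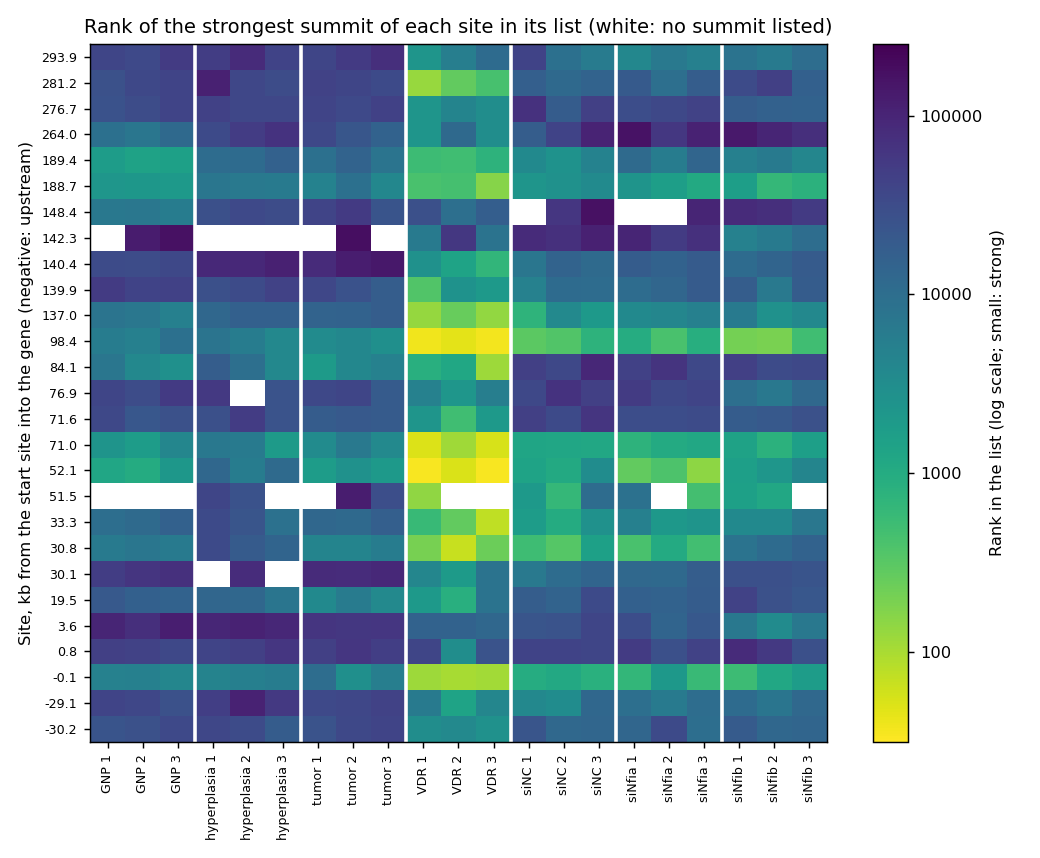
Rank of the strongest summit of each site in each library's list (colour on a log scale, yellow strong, white: no summit listed), for the 27 sites occupied in every library or among the 10000 strongest outside untreated VDR, ordered from downstream to upstream. Rows at 98.4, 71.0 and 52.1 kb are yellow in untreated VDR, and the row at 84.1 kb is darker in the 9 siRNA libraries than in all others.

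In the siRNA-treated line Gli2 stood above tumor, and so did its neighbours. For siNC minus tumor the difference was 0.59 (SE 0.103, limma adjusted p = 0.000148), with 3 of 3 siNC libraries above every tumor library. Of 6713 genes, 16.1% were called higher and 20.6% lower. The 6 neighbours that reach a mean of 3 without untreated VDR rose too, and the median over all 10 was 0.72. Against the neighbours Gli2 differed by -0.23 and did not pass (SE 0.113, limma adjusted p = 0.137). In the upper tier the difference of 0.47 did not pass (limma adjusted p = 0.245), and with a fixed score it was -0.36 (limma adjusted p = 0.228), beside a median of -0.72 over all genes tested. On that setting 1.97% of the called genes were higher, against 43.9% at equal list length. This comparison and the one of untreated VDR share the tumor libraries. Oligodendrocyte markers summed to 13 to 16 regions in siNC against 33 to 39 in tumor, with Olig2 called lower (-3.17). Granule progenitor markers summed to 93 to 99 against 123 to 130. Of these 9 markers 5 were called lower and 2 higher, the latter being Atoh1 (0.50) and Zic2 (0.65). The part of these marker values in the result was not tested.

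Site by site, siNC had 10 sites that tumor lacked of 113 (8.85%, against 4.45% of all regions and 13 of 92 neighbouring sites) and lacked 3 that tumor had (2.65%, against 10.3%). The gained sites lay at 314.7, 287.9 and 284.5 kb, downstream of the gene, and at 142.8, 136.2, 117.5, 113.1, 97.8, 70.3 and 52.8 kb in the body. Without siNC replicate 1 the gained sites numbered 16. The lost sites lay at 227.8 kb and, upstream of the gene, at 61.3 and 61.9 kb. The upstream pair (chr1:119114715-119115214 and chr1:119115249-119115748) was kept in 8 of 9 primary libraries and all 3 untreated VDR libraries, and was unlisted in all 3 siNC libraries. Of the 25 sites occupied in all 6 libraries, 15 ranked stronger in siNC (60%, against 23.6% of all regions and 14 of 20 neighbouring sites) and 3 weaker (12%, against 24.7%).

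One of those 3, at 84.1 kb (chr1:118969304-118969803), was the clearest site on which the siRNA-treated line ran against the rest of the locus. It ranked 7480, 3841 and 2813 in GNP, 17941, 9411 and 3807 in hyperplasia and 1889, 3877 and 4843 in tumor. Untreated VDR ranked 866, 1181 and 117. The siRNA libraries ranked 45930, 35664 and 91110 (siNC), 44194, 65294 and 36204 (siNfia) and 46420, 32098 and 36206 (siNfib). All 9 were thus weaker than all 12 other libraries, and the 3 siRNA groups overlapped. The other two, at 71.6 and 19.5 kb, were weaker in siNC than in tumor as well, with ranks of 33267 to 62412 against 18267 to 20788 and 14581 to 33333 against 3513 to 6097.

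Knockdown of Nfia or Nfib, which encode CCAAT-binding factors of the nuclear factor I family, gave no called difference in the number of Gli2 regions. The difference was 0.08 for siNfia minus siNC (SE 0.116, limma adjusted p = 0.822) and -0.09 for siNfib minus siNC (SE 0.116, limma adjusted p = 0.745). Of 6562 genes, 0.0152% were called higher and 0.0152% lower with siNfia, and 0.686% and 0.655% with siNfib. The regions per library were 69, 70 and 56 under siNC, 61, 78 and 67 under siNfia and 63, 62 and 57 under siNfib, so that all 3 groups overlapped. Both knockdowns were compared with the same 3 siNC libraries. The sign of either difference turned under other list lengths, and no setting passed the test. Against the neighbours the differences were -0.09 and 0.02 (limma adjusted p = 0.81 and 0.967), with 0% of genes called in either direction with siNfia and 0.747% higher and 1.04% lower with siNfib. None of the 7 neighbours tested was called in either comparison.

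Gained and lost sites were few in both. With siNfia 2 of 144 sites were gained (1.39%, against 0.998% of all regions), at 162.2 and 39.1 kb, and 1 was lost (0.694%, against 0.849%), at 52.8 kb. Without siNfia replicate 1 or 3 the gained sites numbered 5, and the lost ones 2 without siNC replicate 1, siNfia replicate 2 or siNfia replicate 3. With siNfib 3 of 117 were gained (2.56%, against 3.36%), at 285.6, 162.2 and 39.1 kb, and 0 were lost (against 2.18%). Without siNC replicate 2 the gained sites numbered 5, and without siNC replicate 3, siNfib replicate 1 or siNfib replicate 3 the lost ones numbered 2. The 39.1 kb site (chr1:119014257-119014756) ranked 86065, 83690 and 97988 with siNfia and 56642, 70312 and 52768 with siNfib, and in siNC it was listed at 211707 and 204085 in 2 libraries.

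Ranks of single sites were compared at the sites occupied in all 6 libraries of a knockdown and its control. With siNfib, of 36 sites, 7 ranked stronger in every siNfib library (19.4%, against 12.2% of all regions) and 4 weaker (11.1%, against 12.2%, a share near the background). The 7 lay at 276.7, 188.7, 142.8, 76.9, 71.6 and 3.6 kb into or past the gene and 0.7 kb before the start. The 4 weaker ones lay at 113.1, 33.3, 30.8 and 30.1 kb. Of 37 sites of the neighbouring genes, 5 ranked stronger with siNfib and 1 weaker. With siNfia 3 of 33 were stronger (9.09%, against 8.15%) and 3 weaker (9.09%, against 9.27%), shares near the background.

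Single sites are described next as examples, since the share weaker with siNfib was near that of all regions. The 30.8 kb site ranked 513, 338 and 1500 (siNC), 417, 1042 and 487 (siNfia) and 8248, 10926 and 15144 (siNfib). The siNfib libraries were weaker than every other library of the line, since untreated VDR ranked 200, 68 and 240. The 3.6 kb site (chr1:119049775-119050274) went the other way, at 23760, 25427 and 37855 (siNC), 29842, 13701 and 21134 (siNfia) and 6950, 3344 and 6947 (siNfib). There the siNfib libraries were the strongest of all 21. At 142.3 kb (chr1:118911063-118911562) the siNfib libraries ranked 4828, 6444 and 9979 and the siNC libraries 83236, 72455 and 110389. At 52.1 kb it was siNfia that stood apart, with 272, 386 and 146 against 1388, 1058 and 3214 with siNC and 1605, 2229 and 4226 with siNfib.

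**Figure D5:**
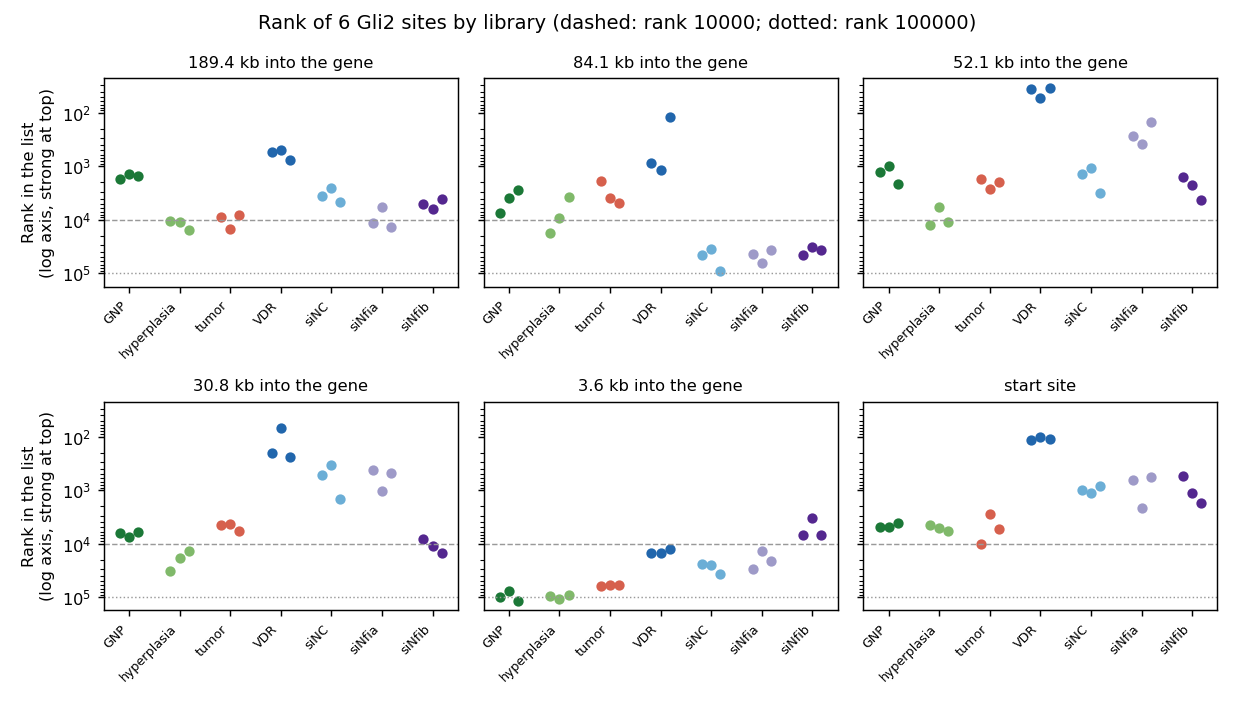
Rank in the list, on a log axis with strong sites at the top, of 6 Gli2 sites in each library by group, with a dashed line at rank 10000 and a dotted line at rank 100000. The 30.8 kb site is weaker with siNfib (8248 to 15144) than with siNC (338 to 1500), and the 84.1 kb site ranks 32098 to 91110 in the siRNA groups, weaker than in all other libraries.

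For the other genes of the pathway, the list held 38 Hedgehog genes, chosen with earlier results of these data known. From tumor to untreated VDR, 5 of 26 tested were called higher (19.2%, against 27.3% of all genes) and 13 lower (50%, against 32.4%), with a median of -0.45 against -0.12 over all genes tested. Beside Gli2 the higher ones were Disp1 (1.58), which releases the ligand, Hhat (1.54), which attaches its lipid, Prkaca (1.47), the catalytic subunit of the kinase that restrains GLI proteins, and Gpr161 (0.58), a ciliary receptor. With a fixed score of at least 10 all 4 turned, to -2.60, -3.12, -1.11 and -2.73, and Gli2 kept its direction at 0.22 without passing. Hhat also turned on the 50000 strongest (-0.42) and the 10000 strongest (-0.92). The lower ones included the co-receptors Cdon (-2.45), Boc (-0.47) and Gas1 (-0.64), the receptor Ptch1 (-0.55) and the restraining factor Sufu (-0.34). Also lower were Spop (-1.53), an adaptor for GLI degradation, the kinases Dyrk2 (-0.92) and Gsk3b (-0.90), and the growth genes Ccnd2 (-0.94) and Mycn (-0.54), the latter 0.23 on the 10000 strongest. Measured against the mean of their own neighbouring genes, as for Gli2 above, several of these calls were lost. Ptch1 (-0.13, limma adjusted p = 0.463), Sufu (-0.23, 0.228), Boc (-0.21, 0.135) and Dyrk2 (-0.11, 0.711) no longer passed. Nor did Gsk3b (-0.06, limma adjusted p = 0.874), Ccnd2 (-0.28, 0.269), Mycn (-0.15, 0.514) and, of the higher genes, Gpr161 (0.19, 0.413). On that measure Cdon (-2.09), Spop (-1.44), Gas1 (-0.58), Prkaca (0.79), Disp1 (0.70) and Hhat (0.51) still passed.

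The other GLI genes were lower in untreated VDR. Gli1, itself a target of the pathway, fell by 0.63 from tumor to untreated VDR (-0.63, SE 0.178, limma adjusted p = 0.00433), and by 0.47 against its neighbours (-0.47, limma adjusted p = 0.0329). Gli3, the member best known as a repressor, had 11 to 12 regions in GNP, 12 to 17 in hyperplasia and 3 in every tumor library. Its groups did not overlap between tumor and the earlier stages. On plain region counts it was the 1 Hedgehog gene called between tumor and hyperplasia (-1.93, SE 0.11, limma adjusted p = 0.00025). That call held on the 50000 strongest (-1.53, limma adjusted p = 0.0254) and not on whole lists (-1.77, 0.1) or with a fixed score (-1.67, 0.0655). In untreated VDR Gli3 had 0 regions, and in the siRNA libraries 0 to 1. Smo differed by -0.46 from tumor to untreated VDR and did not pass (limma adjusted p = 0.171). Against its neighbours it was lower (-1.29, limma adjusted p = 0.000583).

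In the stage comparisons the calls among members depended on the list setting. From GNP to hyperplasia Hhip (0.93), an antagonist that binds the ligand, Btrc (0.81), of the ligase that processes GLI proteins, and Tulp3 (0.41; -0.15 on whole lists), a ciliary transport factor, were higher, and Spop (-0.55) and Boc (-0.32) lower, of 27 tested (11.1% higher and 7.41% lower, against 6.06% and 4.65% of all genes). Hhip, Btrc, Tulp3 and Boc lost their calls under every other list length and the fixed score, wherever tested, and Spop kept its call with a fixed score alone (-0.96, limma adjusted p = 0.028). From GNP to tumor Gpr161 (0.46), Tulp3 (0.41) and Gsk3b (0.29; -0.26 on whole lists and -0.05 with a fixed score) were higher and Gli3 (-1.66) lower, of 27 (11.1% and 3.7%, against 5.43% and 3.57%). Gpr161 and Tulp3 lost their calls in both other settings that tested them, Gsk3b kept its call on the 50000 strongest alone (0.87, limma adjusted p = 0.00961), and Gli3 kept its call in the 3 that tested it. Between tumor and hyperplasia 0% were higher and 3.7% lower, against 1.3% and 1.2% of all genes. From tumor to siNC, Gli2 (0.59), Disp1 (0.83; -0.26 with a fixed score) and Prkaca (0.91) were higher of 26 (11.5%, against 16.1% of all genes). Disp1 did not pass on whole lists (0.20, limma adjusted p = 0.45), nor Prkaca with a fixed score (0.19, 0.597). Among the 8 lower ones (30.8%, against 20.6%) were Gli3 (-1.67), Spop (-1.11; -0.57 on whole lists, not passing at an adjusted p of 0.111), Ccnd2 (-0.98), Disp2 (-0.95), Cdon (-0.90), Ccnd1 (-0.49) and Btrc (-0.43; 0.09 on the 50000 strongest). Of 21 tested in each knockdown none was called. The list's medians were -0.06, 0.11 and 0.07 in hyperplasia minus GNP, tumor minus hyperplasia and tumor minus GNP, against 0 over all genes in each. They were -0.22 in siNC minus tumor, against -0.03, and -0.01 and -0.02 with siNfia and siNfib, against 0. In the stage and knockdown comparisons Ptch1, Gli1 and Smo were not called in any on plain region counts. Against its neighbours Ptch1 was lower in hyperplasia than in GNP (-0.53, limma adjusted p = 0.0193). On that measure Tulp3 lost its call in hyperplasia minus GNP, and Gpr161, Tulp3 and Gsk3b lost theirs in tumor minus GNP. Gli2, Ccnd1 and Ccnd2 lost theirs in siNC minus tumor. Other members passed on that measure and not on plain counts. Gli3 (0.55, limma adjusted p = 0.0157) did in hyperplasia minus GNP, and Sufu (0.86, 0.0313) in tumor minus hyperplasia. Btrc (0.53, 0.0219) and Ccnd1 (0.36, 0.0342) did in tumor minus GNP. Ccnd1 (-0.52, 0.0133) did in VDR minus tumor, and Ptch1 (-0.56, 0.00317) in siNC minus tumor.

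The genes on other chromosomes whose region counts followed Gli2 most closely over the 21 libraries were Anks1 (Pearson r = 0.973), Pax5 (0.972), Atp2b2 (0.969), Chrna4 (0.966) and Scube3 (0.965), among 6132 genes compared. Without the 3 untreated VDR libraries the same correlations over 18 libraries were 0.779, 0.815, 0.862, 0.751 and 0.851. They are a description: all points share the library lists, and the 3 untreated VDR libraries lie far from the rest.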

How the data were processed

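The deposited data are 1 list of summits per library, and the authors' score in each is read as the -log10 of a p or q value of the peak caller. Bowtie2, Picard, MACS2 and the mm10 build come from the submitters' processing notes, without versions or settings. Read depth is unknown, so no counting interval was given. Lists held 159720 to 279584 summits. The score depends on depth and served only to rank within a list. From each list the 100000 strongest summits were kept and merged by rank into 500 bp regions. Per library, 67.0% to 80.4% of the kept summits of the Gli2 window fell inside a region. A region went to the smallest of 21887 protein-coding gene bodies (GRCm38.p6) that held its centre, or else to the nearest within 100 kb. Counts were tested as log2(regions + 1) with limma 3.58.1 in R 4.3.3, with trended empirical Bayes, for genes with a mean of at least 3 regions, with calls at an adjusted p under 0.05 (Benjamini-Hochberg). Stage comparisons were fitted over the 9 primary libraries, knockdowns over the 9 siRNA libraries, and comparisons of the line with tumor over all 21. Tables were made with Python 3.11.15.

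In data simulated as independent Poisson counts for tumor minus GNP, the fit recovered 15.0% of genes changed 2-fold and 93.0% of those changed 4-fold. The shares were 21.0% and 77.0% for VDR minus tumor, and 21.2% and 92.9% for siNfib minus siNC. Measured replicates could spread less than Poisson counts, as for Gli2 in GNP (mean 43.0, SD 1.73). The simulated shares therefore do not give the sensitivity in the measured data. Replicates shared at most 2.57% of kept summit positions. Replicate numbers were not taken to pair the samples, as no comparison had all 3 correlations of same-numbered deviations over 0.1. That rule cannot exclude pairing. In VDR minus tumor 3 libraries correlated best with the one of their own number, and in siNfib minus siNC 2 did. Fits with the replicate number as a block are given below. Genes named were Gli2, its 5 nearest genes on each side, called Hedgehog members with Ptch1, Gli1, Gli3 and Smo, and the 5 genes most like Gli2. One called list member is not reported here. Sites named came from those occupied in every library, among the 10000 strongest, or present in 3 of 3 libraries against none, and sites meeting this through untreated VDR alone are given as counts. The members and lists were chosen with earlier results of these data known. Sequences of sites other than the promoter were not analysed here.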

Additional observations from a re-analysis of the deposited data

How the results depend on the processing

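Tumor minus GNP changed sign against neighbouring genes (0.14), without GNP replicate 2 (0.019) and without tumor replicate 2 (0.048). Hyperplasia minus GNP passed the test on the 50000 strongest summits alone (-0.37), and tumor minus hyperplasia did not pass in any of its 22 alternatives. VDR minus tumor lost its call at a score of at least 10 (0.22) and turned against neighbouring genes (-0.94), several of which had few regions in tumor. For siNC minus tumor the call was lost on the 10000 strongest (0.47), and the sign turned at a score of at least 10 (-0.36) and against neighbours (-0.23). The uncalled siNfia minus siNC turned on the 50000 strongest (-0.082), 10000 strongest (-0.065), whole lists (-0.10), at a score of at least 10 (-0.18), against neighbours (-0.093), without siNC replicate 3 (-0.024) and without siNfia replicate 2 (-0.016). The uncalled siNfib minus siNC turned in the same order of settings to 0.11, 0.10, 0.26, 0.55 and 0.015. The cause was not tested. Leaving out 1 library gave -0.25 to -0.09 for hyperplasia minus GNP, 0.07 to 0.24 for tumor minus hyperplasia, -0.068 to 0.048 for tumor minus GNP, 2.95 to 3.07 for VDR minus tumor, 0.53 to 0.69 for siNC minus tumor, -0.024 to 0.16 for siNfia and -0.19 to -0.04 for siNfib, and ended no call. With the replicate number as a block the limma adjusted p for Gli2 was 0.332, 0.461, 1, 2.42e-13, 0.000259, 0.781 and 0.688 in the order of the comparisons above, and no Gli2 call changed. The block moved the genes called from 732 to 445, from 171 to 62, from 615 to 370, from 2 to 0 and from 88 to 0 in the stage and knockdown comparisons. Among called genes the share that were higher moved from 56.6% to 7.1% for hyperplasia minus GNP and from 60.3% to 28% for tumor minus GNP at a score of at least 10, and from 52% to 65.7% and 68.7% for tumor minus hyperplasia on the 50000 and 10000 strongest. Over all alternatives the genes called ranged from 3 to 1395, 1 to 347, 50 to 1561, 563 to 11164, 652 to 6871, 0 to 109 and 0 to 233. Sites gained in untreated VDR over tumor ranged from 14 on the 10000 strongest to 236, and those gained in siNC from 2 to 19. Sites lost in hyperplasia ranged from 3 to 8, in tumor against GNP from 0 to 9. Fits on the tumor, VDR and siNC libraries alone, and on 18 libraries without untreated VDR, were chosen after seeing the data and changed no Gli2 call.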
